A study of Homo sapiens with 6 samples.

Results

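Histone acetyltransferases (HATs) were examined by RNA-seq in WM164, a human melanoma cell line with a mutant BRAF. The group was chosen by gene symbol and holds EP300, CREBBP, KAT2A, KAT2B, KAT5, KAT6A, KAT6B, KAT7, KAT8 and HAT1, which are 10 of the 60504 genes in the deposited table. The EV group (3 libraries) carried an empty expression vector and the HDAC8 group (3 libraries) a vector for HDAC8, a class I histone deacetylase. Both groups shared the parental line and its BRAF mutation, and according to the methods of the study both were transfected with Lipofectamine and kept in hygromycin. The sources used here do not say whether each line was a clone or a pool, or whether the replicates came from separate transfections, so the p-values measure the spread between these libraries. The comparison asks whether the transcripts of EP300 and the other HATs differed with the vector. In bulk RNA a lower share of cells with a transcript and less of it per cell cannot be told apart.

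HATs transfer an acetyl group from acetyl-CoA to lysines of histones and of other proteins, which opposes the deacetylases. EP300 and CREBBP are paralogous coactivators with many transcription factor partners, among them MITF in the melanocytic lineage and the AP-1 protein c-Jun. KAT2A and KAT2B belong to the GNAT family and work within the SAGA and ATAC complexes. KAT5, KAT6A, KAT6B, KAT7 and KAT8 form the MYST family, and HAT1 is a type B enzyme that acetylates newly made histone H4 before it enters chromatin.

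To show the regulatory sequence in front of paralogous pairs, the 250 bases before the RefSeq start of EP300, CREBBP, KAT2A and KAT2B are given. They run 5′ to 3′ on the gene's strand (GRCh38.p14). Transcripts of these pairs are set against each other below, as are those of KAT6A and KAT6B, whose windows are not printed. Capitals mark the GC box (GGGCGG on either strand), the site of SP family factors.
EP300 (chr22:41092342-41092591, plus strand): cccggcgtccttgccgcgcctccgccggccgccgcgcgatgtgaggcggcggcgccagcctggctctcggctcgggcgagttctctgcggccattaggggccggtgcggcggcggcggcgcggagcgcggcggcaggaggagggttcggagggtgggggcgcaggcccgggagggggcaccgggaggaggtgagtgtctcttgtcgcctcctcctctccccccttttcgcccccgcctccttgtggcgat
CREBBP (chr16:3880714-3880963, minus strand): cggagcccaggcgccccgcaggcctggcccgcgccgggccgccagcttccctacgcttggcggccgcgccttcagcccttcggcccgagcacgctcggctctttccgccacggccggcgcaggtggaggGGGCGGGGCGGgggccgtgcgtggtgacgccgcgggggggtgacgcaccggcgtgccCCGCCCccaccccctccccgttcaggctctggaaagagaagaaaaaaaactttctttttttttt
KAT2A (chr17:42121368-42121617, minus strand): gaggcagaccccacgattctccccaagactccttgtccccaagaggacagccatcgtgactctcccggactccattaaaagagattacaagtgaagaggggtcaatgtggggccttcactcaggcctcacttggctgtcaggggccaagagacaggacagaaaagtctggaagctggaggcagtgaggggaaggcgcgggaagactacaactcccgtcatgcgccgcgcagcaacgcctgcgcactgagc
KAT2B (chr3:20040196-20040445, plus strand): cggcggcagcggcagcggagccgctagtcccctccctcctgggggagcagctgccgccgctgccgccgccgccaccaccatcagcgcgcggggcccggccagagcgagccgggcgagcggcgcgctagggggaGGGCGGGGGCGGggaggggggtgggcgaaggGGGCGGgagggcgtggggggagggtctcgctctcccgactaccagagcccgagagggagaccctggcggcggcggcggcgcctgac
The GC box was found 0 times in the EP300 window, 3 times in the CREBBP window, 0 times in the KAT2A window and 3 times in the KAT2B window, while 42.6% of all 35116 RefSeq promoter windows of this length held at least 1. In CREBBP a pair of these matches overlapped. RefSeq lists 2 starts for CREBBP, and the window of the other one (chr16:3880121-3880370), not printed here, held 4 GC boxes at 84% GC. GC content was 76.8% for EP300, 72.4% for CREBBP, 58.8% for KAT2A and 80.8% for KAT2B, against a median of 58% over all windows. None of the 4 windows held the AP-1 letters TGANTCA, the E-boxes CACGTG or CATGTG that MITF binds, or the CRE TGACGTCA, letters that 6.57%, 6.34%, 9.42% and 1.65% of all windows held. Windows were searched for 8 of the 10 HATs, 11 in all, and not for KAT6A or KAT8. KAT5 alone among these 8 matched any of these 4 motifs, with 1 CACGTG. The GC box was also found in windows of KAT6B and HAT1.

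Total counts per library ran from 34741083 to 42041462 and overlapped between the groups. On the 1000 most variable genes the first principal component (44.5% of the variance) separated EV from HDAC8, and the next (18.6%) set HDAC8 1 and HDAC8 2 at opposite ends (59.5 and -58.7). Mitochondrially encoded transcripts took 9.66% to 12.8% of counts in EV and 4.46%, 7.94% and 7.63% in HDAC8 1, HDAC8 2 and HDAC8 3. A DESeq2 fit without these genes also called 0 HATs, with KAT2B at an adjusted p of 0.0634. Any other part of this difference in the results was not tested. The 7 melanocytic lineage markers were all detected, with summed normalized counts of 244898 to 328728 in EV and 137043 to 182218 in HDAC8. PMEL made up most of these sums, which did not overlap between groups. MLANA ran from 8323 to 9052 in EV and from 237 to 372 in HDAC8, and TYR and DCT were also lower in every HDAC8 library, while MITF overlapped (16257 to 17935 and 11314 to 17920). Sums for 3 leukocyte markers were 0 to 14.7 in EV and 50.1 to 112 in HDAC8, carried by CD3E with PTPRC at or near 0. For 3 endothelial markers they were 97.5 to 203 and 114 to 218, for 3 epithelial markers 71 to 120 and 0 to 70.1, and for 4 fibroblast markers 215 to 284 and 265 to 407, with CDH5, EPCAM and DCN at 0 throughout. The part of these differences in the results was not tested. HDAC8 itself had normalized counts of 384, 404 and 479 in EV and of 485, 446 and 474 in HDAC8, where the groups overlapped (log2 fold change 0.15, DESeq2 adjusted p = 0.856). The 95% interval of its fold change was 0.755 to 1.63, and none of 14 alternatives called it higher. A rise of HDAC8 RNA was therefore not seen in the libraries labelled HDAC8, and this transcript does not bear out the labels. The cause was not tested. Directions given here set libraries labelled HDAC8 against libraries labelled EV.

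No HAT passed the test. Calls used the thresholds of the study's methods, a DESeq2 adjusted p below 0.05 with a log2 fold change of 0.58 or more in either direction, and 0 of 10 HATs were higher and 0 lower. Over all genes with an adjusted p, 11.0% were called, 5.57% as higher and 5.44% as lower, and of those with a mean at least that of the lowest HAT 16.5% were called. With no fold change minimum the HAT counts were again 0 and 0, beside 13.0% over all genes (6.63% higher and 6.38% lower). The lowest unadjusted DESeq2 p-values among the HATs were 0.00733 (KAT6B) and 0.00916 (KAT2B). A figure legend of the study pairs the same fold change minimum with a p below 0.05 that is not adjusted. KAT2B (log2 fold change -0.71) met that rule and KAT6B (-0.50) did not. The share of all genes that met it was not counted. By limma-voom 1 HAT, KAT2B, was called lower, as it was by the edgeR quasi-likelihood test. Of the 10 log2 fold changes 3 were above 0 and 7 below, with a median of -0.16, where the median over all genes tested was -0.00012. The groups did not overlap in 3 HATs (30%; KAT2B, KAT6B and KAT8, each lower), against 24.0% of all genes tested and 39.3% of genes with a mean at least that of the lowest HAT, so that share was near the background. As fractions of all counts the 10 genes took 0.123% to 0.125% in EV and 0.116% to 0.125% in HDAC8.

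**Figure D1:**
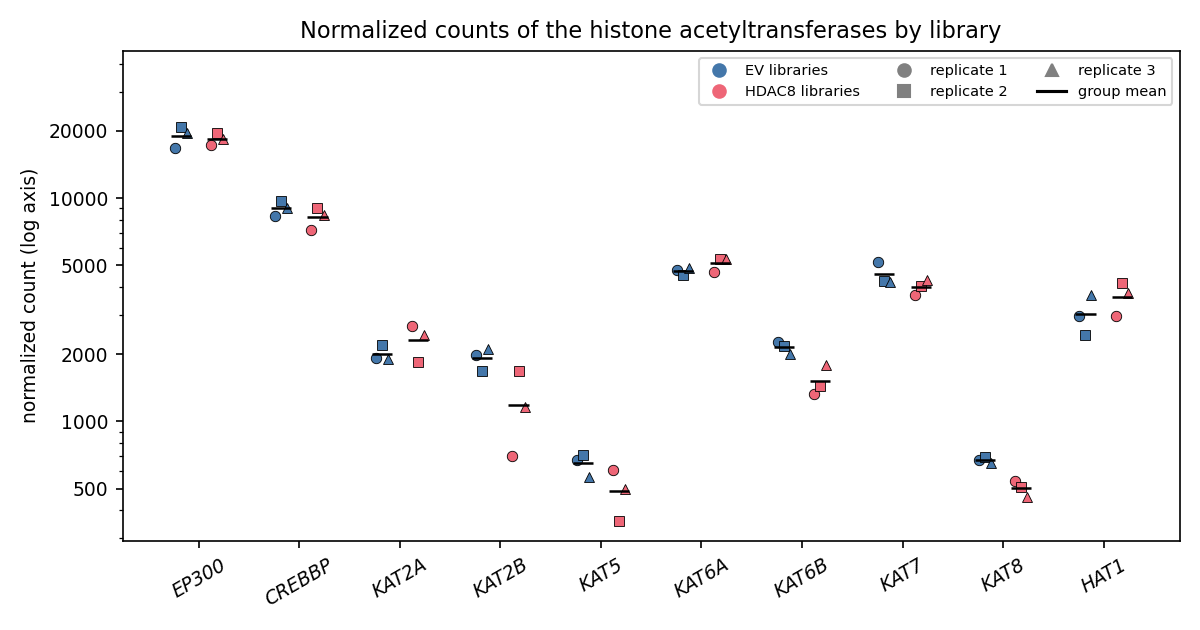
Normalized counts (log axis) of the 10 HATs in each EV (blue) and HDAC8 (red) library; symbols give the replicate number and lines the group means. EP300 and CREBBP overlapped between the groups, while KAT2B ran from 699 to 1680 in HDAC8 against 1684 to 2101 in EV.

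EP300 and CREBBP, the general coactivators, were the most abundant HATs by count. EP300 (ENSG00000100393, GRCh38 chromosome 22, 41092592 to 41180077, plus strand) had normalized counts of 16829, 20743 and 19584 in EV and of 17264, 19587 and 18340 in HDAC8. The HDAC8 libraries lay wholly inside the EV range. The means were 19052 ± 2010 and 18397 ± 1162 (SD, n = 3), a log2 fold change of -0.05 with a standard error of 0.13 (adjusted p = 0.907, DESeq2). The 95% interval of the fold change was 0.807 to 1.16. A DESeq2 test of whether the change was smaller than 0.58 on the log2 scale gave an adjusted p of 0.0123 for EP300. That test passed for 2.16% of all genes and 6.67% of genes with a mean at least that of the lowest HAT. It passed in 7 of 12 fits and not with the replicate block or without EV replicate 1, EV replicate 3, HDAC8 replicate 2 or HDAC8 replicate 3. The adjusted p for EP300 ran from 3.17e-05 (without HDAC8 replicate 1) to 0.258 (without HDAC8 replicate 3), with interval limits no lower than 0.738-fold and no higher than 1.23-fold. The overlapping antisense transcripts EP300-AS1 and ENSG00000232754 had at most 7.88 and 14.3 normalized counts in any library.

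CREBBP (ENSG00000005339, chromosome 16, 3725054 to 3880713, minus strand) was measured at 8314, 9684 and 9066 normalized counts in EV and at 7170, 9073 and 8412 in HDAC8. HDAC8 1 was lower than every EV library and the other HDAC8 libraries were within the EV range. The log2 fold change was -0.13 with a standard error of 0.14 (adjusted p = 0.674, DESeq2), with a 95% interval from 0.75-fold to 1.11-fold, and the test of a change under 0.58 passed (adjusted p = 0.0475). That result was lost with the replicate block, with no filter on low counts (adjusted p = 0.0579) and whenever 1 library other than HDAC8 1 was left out. Together EP300 and CREBBP made up 55.2% to 62% of the summed HAT counts in EV and 57.5% to 59.7% in HDAC8.

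**Figure D2:**
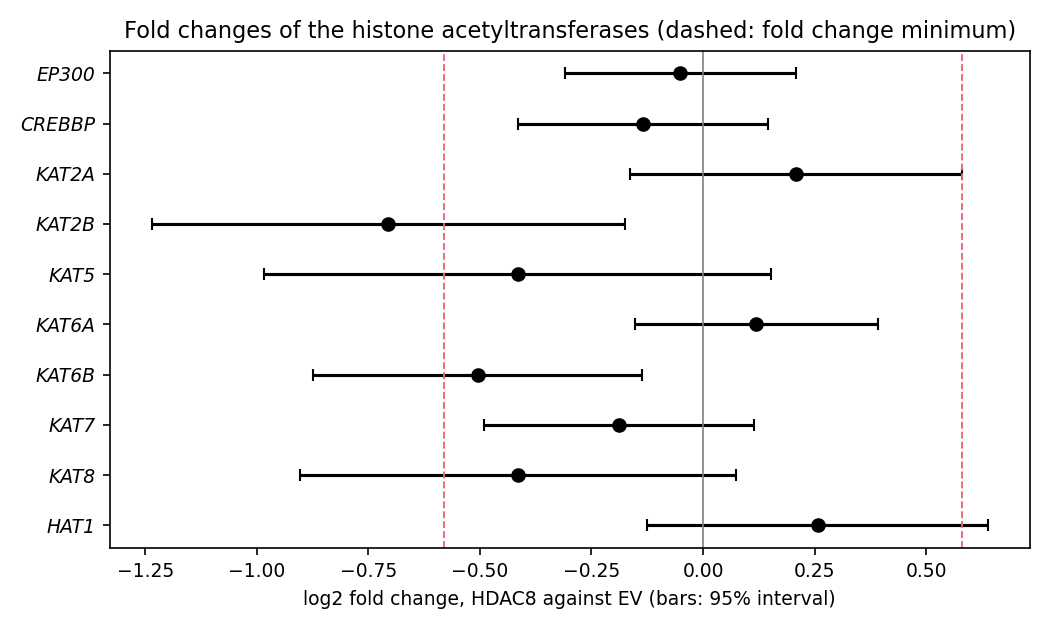
Log2 fold changes (HDAC8 against EV, x axis) of the 10 HATs with 95% intervals from the DESeq2 standard error (bars); dashed lines mark the fold change minimum of 0.58. The intervals of KAT2B (-1.24 to -0.17) and KAT6B (-0.87 to -0.14) did not reach 0, and those of EP300, CREBBP, KAT6A and KAT7 lay inside the dashed lines.

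The GNAT enzymes KAT2A and KAT2B, alternative catalytic subunits of SAGA and ATAC, had log2 fold changes of opposite sign that did not pass the test. KAT2B (ENSG00000114166, chromosome 3, 20040446 to 20154404, plus strand), also known as PCAF, had normalized counts of 1981, 1684 and 2101 in EV and of 699, 1680 and 1160 in HDAC8. HDAC8 1 was below every other library, HDAC8 3 was intermediate, and HDAC8 2 was within 5 counts of the lowest EV library. The means were 1922 ± 215 and 1179 ± 491 (SD, n = 3), and the coefficient of variation was 11.2% in EV and 41.6% in HDAC8. The log2 fold change was -0.71 with a standard error of 0.27 (adjusted p = 0.0642, DESeq2), the largest in size among the HATs. edgeR's quasi-likelihood test (log2 fold change -0.71, adjusted p = 0.0381), limma-voom (-0.81, adjusted p = 0.0335) and DESeq2 on genes with at least 10 counts in every library (-0.71, adjusted p = 0.0377) called it lower. The value depended on which HDAC8 library was left out. Without HDAC8 replicate 1 the log2 fold change was -0.44 (DESeq2 adjusted p = 0.138), and without HDAC8 replicate 2 it was -1.04 (DESeq2 adjusted p = 8.32e-04). Over all 14 alternatives the adjusted p ran from 8.32e-04 to 0.262, with 4 calls.

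KAT2A (ENSG00000108773, chromosome 17, 42113111 to 42121367, minus strand), known as GCN5, was measured at normalized counts of 1925, 2192 and 1910 in EV and of 2677, 1849 and 2438 in HDAC8. The groups overlapped, and the order among the HDAC8 libraries was the reverse of that for KAT2B. The log2 fold change was 0.21 with a standard error of 0.19 (adjusted p = 0.597, DESeq2).

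The MYST enzymes were led in count by KAT6A and KAT7. KAT6A (ENSG00000083168, chromosome 8), the MOZ protein, had normalized counts of 4759, 4546 and 4844 in EV and of 4685, 5331 and 5354 in HDAC8. Of the HDAC8 libraries, 2 were above every EV library and HDAC8 1 was not. The log2 fold change was 0.12 with a standard error of 0.14 (adjusted p = 0.714, DESeq2), and the test of a change under 0.58 passed (adjusted p = 0.0366), though not with the replicate block or when 1 library other than HDAC8 1 was left out.

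KAT6B (ENSG00000156650, chromosome 10, 74824927 to 75032624, plus strand), its paralog MORF, had normalized counts of 2275, 2168 and 2011 in EV and of 1321, 1433 and 1797 in HDAC8. Every HDAC8 library was below every EV library. The means were 2151 ± 133 and 1517 ± 249 (SD, n = 3), a log2 fold change of -0.50 with a standard error of 0.19 (adjusted p = 0.0547, DESeq2), which missed both thresholds. Without HDAC8 replicate 3 KAT6B was called lower (log2 fold change -0.64, DESeq2 adjusted p = 0.0313), and over 14 alternatives the adjusted p ran up to 0.248.

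KAT8 and KAT5 had the lowest counts. KAT8 (ENSG00000103510, chromosome 16, 31114489 to 31131393, plus strand), the MOF protein that acetylates histone H4, had normalized counts of 670, 690 and 651 in EV and of 538, 510 and 461 in HDAC8. The groups did not overlap and the libraries within each were close together, with coefficients of variation of 2.91% and 7.78%. The log2 fold change was -0.41 with a standard error of 0.25 (adjusted p = 0.325, DESeq2). Its 95% interval ran from 0.535-fold to 1.05-fold.

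KAT5 (ENSG00000172977, chromosome 11, 65711996 to 65719604, plus strand), the TIP60 enzyme of DNA damage signalling, had normalized counts of 673, 705 and 565 in EV and of 604, 357 and 495 in HDAC8. HDAC8 1 lay within the EV range and the other HDAC8 libraries below it (log2 fold change -0.42, standard error 0.29, adjusted p = 0.43 by DESeq2). KAT5 shares 1439 exonic bases with RNASEH2C on the opposite strand, and its expected counts were not whole numbers in any library, so its level is uncertain. RNASEH2C had a log2 fold change of 0.18 (DESeq2 adjusted p = 0.84).

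KAT7 (ENSG00000136504, chromosome 17, 49788624 to 49835026, plus strand), the HBO1 enzyme linked to replication origins, had normalized counts of 5200, 4257 and 4215 in EV and of 3671, 4048 and 4281 in HDAC8. The groups overlapped, with the highest value in EV 1 and the lowest in HDAC8 1 (log2 fold change -0.19, standard error 0.15, adjusted p = 0.537 by DESeq2). Its expected counts were not whole in 5 libraries, and it shares 226 exonic bases with FAM117A on the opposite strand.

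HAT1 (ENSG00000128708, chromosome 2, 171922448 to 171983686, plus strand) had normalized counts of 2959, 2446 and 3696 in EV and of 2954, 4155 and 3767 in HDAC8. It was the most variable HAT among the EV libraries, with a coefficient of variation of 20.7%, and the groups overlapped (log2 fold change 0.26, standard error 0.19, adjusted p = 0.486 by DESeq2). Loosening the bound to a log2 fold change of 1, the test of a smaller change passed for 8 of the 10 HATs, all but KAT2B and KAT5. It also passed for 27.9% of all genes and for 76.2% of genes with a mean at least that of the lowest HAT, so the HATs were near the background there.

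A longer transcript collects more reads, so levels of different HATs were compared as normalized counts per kilobase of the canonical transcript (GENCODE release 44). In EV EP300 was highest, with 2170 ± 229 per kilobase (SD, n = 3), followed by HAT1 with 1857 ± 385, and these overlapped. The level of EP300 exceeded those of 94.4% of 15588 protein-coding genes and that of HAT1 93.3%. CREBBP (836 ± 63.6), KAT2A (645 ± 50.9) and KAT6A (515 ± 16.7) followed in that order with no overlap between neighbours. KAT6A, KAT7 (479), KAT8 (448) and KAT2B (436) overlapped each with the next. KAT5 (312 ± 35.2) and KAT6B (259 ± 16) were lowest and overlapped with each other. The same order held in HDAC8 apart from the exchange of HAT1 (2219 ± 375) and EP300 (2096 ± 132), which overlapped there too. In HDAC8, unlike EV, CREBBP overlapped with KAT2A and KAT2B with KAT5, while KAT6A, KAT7 and KAT8 did not overlap each with the next. Per kilobase of all annotated exons EP300 was first in both groups, HAT1 was the fourth in EV and the third in HDAC8, KAT2B moved from rank 8 to 5 and KAT8 from 7 to 9 in EV, and KAT2A from 4 to 2 in HDAC8. The order therefore depends on the transcript length assumed, with KAT6B last by both lengths in both groups.

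**Figure D3:**
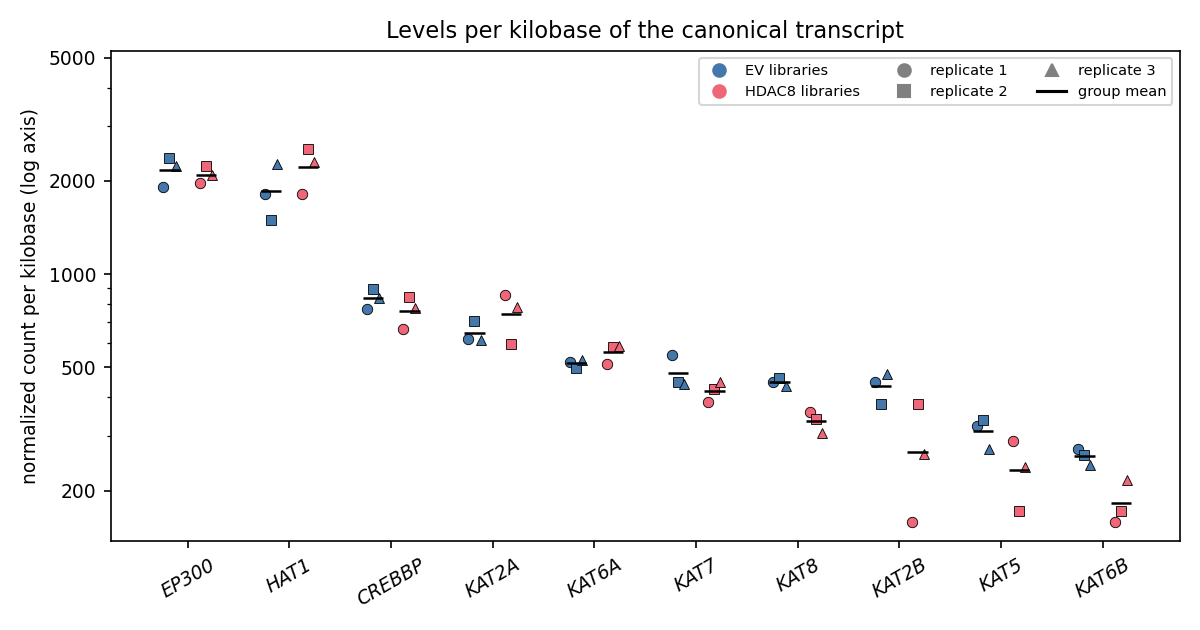
Normalized counts per kilobase of the canonical transcript (log axis) for the 10 HATs, ordered by their EV mean; blue, EV libraries; red, HDAC8 libraries; lines, group means. EP300 and HAT1 stood above the other HATs, between 1497 and 2543 per kilobase in every library, where the next, CREBBP, reached 897.

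Ratios of paralogs within a library do not depend on the scaling between libraries, and 3 pairs were compared. The EP300 to CREBBP ratio of normalized counts was 2.02, 2.14 and 2.16 in EV and 2.41, 2.16 and 2.18 in HDAC8. These values overlapped, with HDAC8 1 the highest, and the difference of the mean log2 ratio was 0.09 (exact permutation test, two-sided, p = 0.2, adjusted p = 0.2, n = 3 per group). The KAT2A to KAT2B ratio was 0.972, 1.3 and 0.909 in EV and 3.83, 1.1 and 2.1 in HDAC8. It was spread widely in HDAC8, with HDAC8 2 inside the EV range (difference of the mean log2 ratio 0.98, exact permutation test p = 0.2, adjusted p = 0.2, n = 3 per group). The KAT6A to KAT6B ratio was 2.09, 2.1 and 2.41 in EV and 3.55, 3.72 and 2.98 in HDAC8. It was higher in every HDAC8 library than in every EV library, a difference of the mean log2 ratio of 0.63 (exact permutation test p = 0.1, the smallest that 3 against 3 allows, adjusted p = 0.2). None of these designs can reach 0.05.

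**Figure D4:**
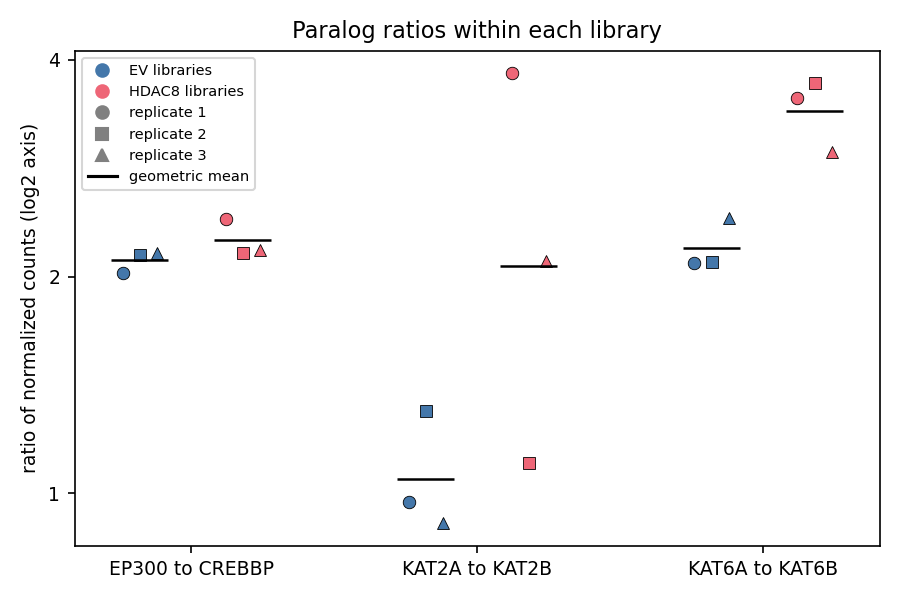
Ratio of normalized counts (log2 axis) of each pair of paralogs in every library; blue, EV; red, HDAC8; symbols give replicate numbers and lines the geometric means. The KAT6A to KAT6B ratio ran from 2.09 to 2.41 in EV and from 2.98 to 3.72 in HDAC8, while the other pairs overlapped.

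The 3 protein-coding genes whose log2 normalized counts followed EP300 most closely across the 6 libraries were GSTK1, EEF2K and RFC5 (Pearson r 0.99, 0.99 and 0.98). They were the top of 11374 genes over only 6 libraries that share scaling and a parental line, and this is a description with no test.

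HATs act in complexes and with cofactors, and 9 lists of such partners were examined next. Of 109 partner genes tested, 6 were higher and 8 lower in HDAC8 (DESeq2), which is 12.8% against 11.0% over all genes and 16.5% over genes with a mean at least that of the lowest HAT. By edgeR 6 were higher and 8 lower, and by limma-voom 4 and 8. The median log2 fold change of these partners was -0.0011, and of all genes -0.00012. Without EV replicate 1 there were 2 higher and 5 lower, and without EV replicate 3 there were 2 higher and 4 lower.

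Of 19 SAGA and ATAC partners of KAT2A and KAT2B, 1 was higher and 0 lower (median 0.20), beside 5.57% and 5.44% of all genes. It was USP22, the deubiquitinase of SAGA, with normalized counts of 16006, 19436 and 16265 in EV and of 27804, 23766 and 26077 in HDAC8. Every HDAC8 library exceeded every EV library (log2 fold change 0.59, standard error 0.13, adjusted p = 2.56e-04 by DESeq2). The fold change was just over the minimum, and without EV replicate 1, EV replicate 3 or HDAC8 replicate 1 it was 0.53, 0.54 and 0.53 and no longer called.

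Of 17 NuA4/TIP60 subunits, which work with KAT5, 2 were higher and 0 lower (median 0.02), where 5.57% of all genes were higher. ACTL6A, an actin-related subunit, rose from 1104 ± 132 to 1754 ± 67.7 normalized counts (SD, n = 3), for a log2 difference of 0.67 (DESeq2 adjusted p = 0.00592). RUVBL1, an AAA+ ATPase, rose from 1132 ± 115 to 1757 ± 260 (a log2 difference of 0.63, DESeq2 adjusted p = 0.017), and in both the groups did not overlap. ACTL6A and RUVBL1 also serve in other chromatin complexes. RUVBL2, the partner ATPase of RUVBL1, had a log2 fold change of 0.57 (DESeq2 adjusted p = 0.0361), just under the minimum. ACTL6A lost its call without EV replicate 1 (adjusted p = 0.0866). RUVBL1 lost it by limma-voom (adjusted p = 0.0522) and without EV replicate 2 (0.06), EV replicate 3 (0.146) or HDAC8 replicate 1 (0.0514).

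Of 9 MOZ/MORF and HBO1 subunits, which work with KAT6A, KAT6B and KAT7, 0 were called by DESeq2, edgeR or limma-voom (median 0.10). DESeq2 called 11.0% of all genes and 16.5% of genes with a mean at least that of the lowest HAT. With so few subunits, a count of 0 does not set this list apart from those shares. The lowest unadjusted DESeq2 p among them was 0.0533 (BRPF1). Of 11 MSL and NSL subunits, which direct KAT8, 0 were higher and 2 lower (median -0.0081), where 5.44% of all genes were lower. PHF20, a reader protein of the NSL complex, had normalized counts of 2731, 2473 and 2645 in EV and of 1353, 1433 and 1670 in HDAC8. It fell by 0.82 on the log2 scale with a standard error of 0.17 (adjusted p = 5.91e-05, DESeq2). KANSL1, the scaffold of the NSL complex, had normalized counts of 6950, 5407 and 5550 in EV and of 3732, 3478 and 3549 in HDAC8. It fell by 0.73 with a standard error of 0.15 (adjusted p = 4.38e-05, DESeq2). Both genes had groups that did not overlap and were called in all 14 alternatives. The other 9 subunits did not pass, with log2 fold changes from -0.30 (MCRS1) to 0.44 (WDR5). WDR5, a WD-repeat protein shared with other complexes, was the one of these whose groups did not overlap (DESeq2 adjusted p = 0.124).

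**Figure D5:**
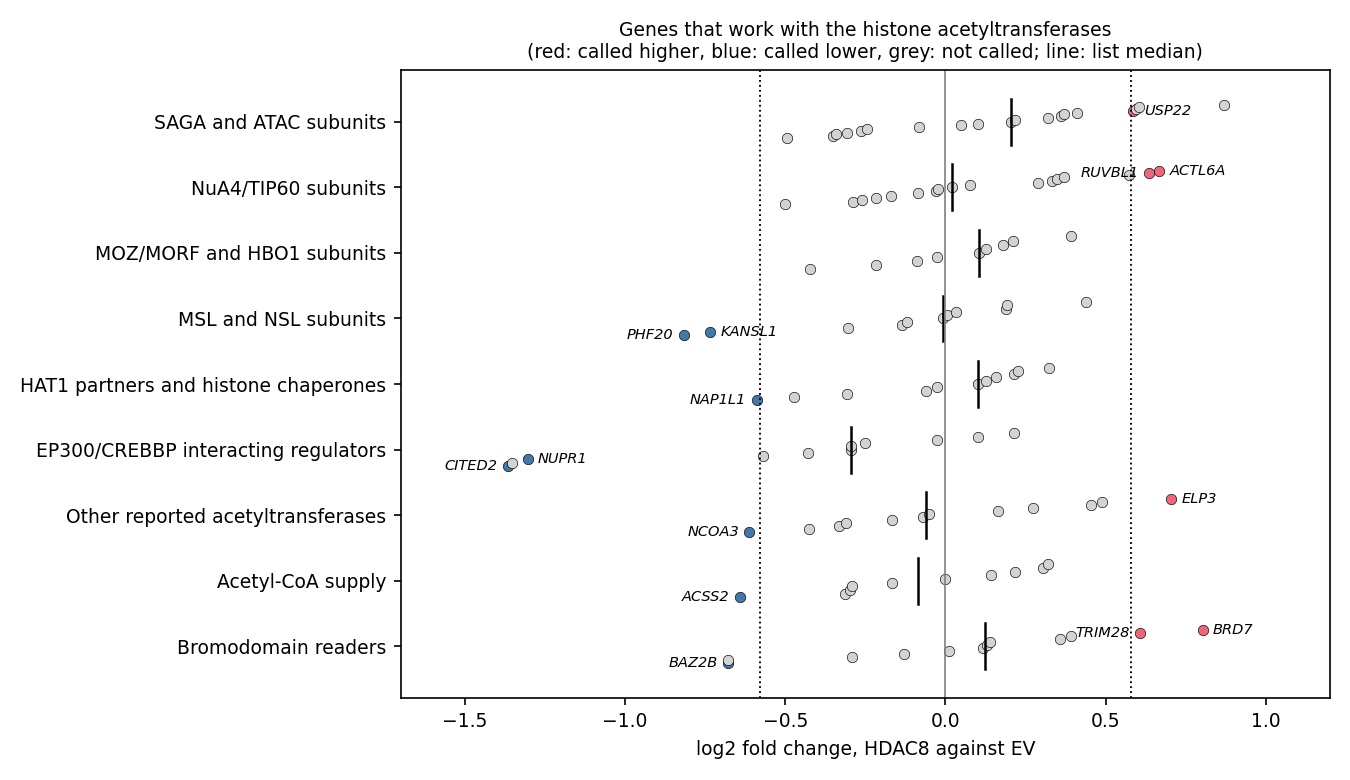
Log2 fold changes (HDAC8 against EV, x axis) of the genes in 9 lists of HAT partners, with genes called higher in red, called lower in blue and not called in grey; dotted lines mark the minimum of 0.58 and vertical lines the list medians. List medians ran from -0.30 to 0.20 and 14 genes were called.

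Among 11 HAT1 partners and histone chaperones, 0 were higher and 1 lower (median 0.10), beside 5.57% and 5.44% of all genes. It was NAP1L1, a histone chaperone, with a log2 fold change of -0.59 (DESeq2 adjusted p = 0.00786), and it was not called with total-count size factors or without EV replicate 1, EV replicate 3 or HDAC8 replicate 1 (log2 fold changes -0.55, -0.58, -0.48 and -0.44). RBBP7, the WD-repeat partner of HAT1, had a log2 fold change of 0.16 (DESeq2 adjusted p = 0.621).

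Of 11 regulators that interact with EP300 and CREBBP, 0 were higher and 2 lower (median -0.30), where 5.44% of all genes were lower. CITED2, a transactivator that binds a domain of EP300 and CREBBP shared with hypoxia-inducible factors, had normalized counts of 327, 228 and 318 in EV and of 53, 121 and 166 in HDAC8. All HDAC8 libraries were lower, and the log2 fold change was -1.37 with a standard error of 0.49 (adjusted p = 0.0423, DESeq2). The call was lost in 6 of 14 alternatives, namely the replicate block (adjusted p = 0.0507) and those without EV replicate 1 (0.214), EV replicate 2 (0.0789), EV replicate 3 (0.195), HDAC8 replicate 1 (0.0919) or HDAC8 replicate 2 (0.0648). NUPR1, a small stress-induced chromatin protein, fell from 2801 ± 221 to 1134 ± 169 normalized counts (SD, n = 3), for a log2 difference of -1.30 with a standard error of 0.18 (adjusted p = 1.21e-10, DESeq2), and was called in all 14 alternatives. CITED1, a pigment cell member of the CITED family, had a log2 fold change of -0.57 (DESeq2 adjusted p = 0.142).

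Of 12 other proteins with reported acetyltransferase activity, 1 was higher and 1 lower (median -0.06), beside 5.57% and 5.44% of all genes. ELP3, the catalytic subunit of Elongator, had normalized counts of 894, 874 and 879 in EV and of 1025, 1642 and 1651 in HDAC8. HDAC8 1 was much closer to EV than the others (log2 fold change 0.71, DESeq2 adjusted p = 0.0252), and 7 of 14 alternatives did not call it, which were limma-voom, the replicate block (adjusted p = 0.0731) and those that left out 1 library other than HDAC8 1, with an adjusted p of up to 0.19. NCOA3, a nuclear receptor coactivator that recruits EP300 and CREBBP, fell by 0.61 with a standard error of 0.17 (adjusted p = 0.00562, DESeq2), and was not called with total-count size factors (-0.57), without EV replicate 3 (-0.52) or without HDAC8 replicate 1 (-0.49). Its paralogs NCOA1 (-0.33) and NCOA2 (0.16) did not pass.

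The substrate of all HATs is acetyl-CoA. Of 10 genes that supply it, 0 were higher and 1 lower (median -0.08), where 5.44% of all genes were lower. ACSS2, which makes acetyl-CoA from acetate, had normalized counts of 1639, 1849 and 1633 in EV and of 1178, 1139 and 967 in HDAC8. Every HDAC8 library was lower (log2 fold change -0.64, standard error 0.19, adjusted p = 0.00967 by DESeq2), with the call lost without EV replicate 1 (adjusted p = 0.0548), EV replicate 2 (0.0854), EV replicate 3 (0.0515) or HDAC8 replicate 3 (0.1). ACLY, which makes acetyl-CoA from citrate, had 5408 and 5404 normalized counts on average (log2 fold change -0.0011, DESeq2 adjusted p = 0.998).

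Of 12 bromodomain proteins, many of which read acetylated lysine, 2 were higher and 1 lower (median 0.12), beside 5.57% and 5.44% of all genes. BRD7, a subunit of the PBAF remodelling complex, had normalized counts of 2264, 2128 and 2362 in EV and of 3737, 3682 and 4363 in HDAC8. It rose by a log2 fold change of 0.80 with a standard error of 0.16 (adjusted p = 8.53e-06, DESeq2) and was called in all 14 alternatives. TRIM28, a corepressor of KRAB zinc finger proteins, rose by 0.61 (DESeq2 adjusted p = 0.0026), and was not called without EV replicate 1 (0.53), EV replicate 3 (0.55) or HDAC8 replicate 1 (0.46). BAZ2B fell by 0.68 with a standard error of 0.17 (adjusted p = 0.00122, DESeq2) and was called in all 14. BRD2, a reader of the BET family, had a log2 fold change of 0.14 that did not pass (DESeq2 adjusted p = 0.591).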

How the data were processed

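RNA-seq libraries of WM164 cells fall into EV and HDAC8 groups of 3, taken with their replicate numbers from the labels. The authors trimmed reads with Trimmomatic, used STAR for alignment and deposited expected counts per gene from RSEM, without scaling of libraries. RSEM splits reads that fit several genes among those genes. Genome build, annotation release and the strand setting are not given in the sources used here, so overlapping and antisense genes are uncertain. The labels and the methods name different RNA extraction kits.

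Expected counts were rounded and tested with DESeq2 1.42.0 in R 4.3.3 (Wald test, two-sided), using the size factors it estimates (0.918 to 1.17), no covariates and Benjamini-Hochberg adjustment, over the 26162 genes whose counts summed to 10 or more, of which 21021 had an adjusted p. The lessAbs form of the test asked whether a change was under 0.58. Intervals are at the 95% level, include the spread between libraries and come from the DESeq2 standard error. Positions and lengths come from GENCODE 44 (GRCh38). Motifs were searched on both strands.

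The HATs and partner lists were chosen with earlier results of these data known. From each partner list the text names called genes without overlap between groups whose mean reached 50 normalized counts, up to the 2 largest rises and 2 largest falls, and other partners named were chosen after their values were seen. Genes most like EP300 were sought among those with a mean of at least 100. Of 111 partner genes, 2 were not tested.

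Alternatives were edgeR 4.0.16, limma-voom (limma 3.58.1), other size factors and filters, a fit without mitochondrial genes, a replicate block, no fold change minimum and each library left out in turn. On simulated counts with known changes no call had the wrong direction, but DESeq2 made more false calls than its adjusted p allows, and edgeR and limma-voom made fewer than DESeq2. No pair of libraries within a group was alike to within sampling noise (27.6 to 168 as chi-square per degree of freedom). The highest values, 168 and 112, were those of HDAC8 1 against HDAC8 2 and HDAC8 3. Deviations of same-numbered libraries from their group means were barely correlated. Whether such libraries were prepared together cannot be told from these correlations.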

Additional observations from a re-analysis of the deposited data

How the results depend on the processing

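Under edgeR, limma-voom, and DESeq2 with at least 10 counts in every library, 1 HAT (KAT2B) was called lower in place of 0, and across fits that each left out 1 library the count ran from 0 to 1 (KAT2B without HDAC8 replicate 2, KAT6B without HDAC8 replicate 3). The count of higher HATs was 0 in all 15 alternatives. The log2 fold change of EP300 ran from -0.13 to 0.013 when each library was left out, with the change of sign without EV replicate 2, and it was not called. The test of a change under 0.58 passed for 3 of the 10 HATs. It passed for 2.16% of all genes and 6.67% of genes with a mean at least that of the lowest HAT. The HAT count was 0 with the replicate block and 0 to 5 when each library was left out. With a bound of 1 it was 8, beside 27.9% of all genes and 76.2% of those with such a mean. Of the 109 partner genes, 10 were higher with no fold change minimum. So were 6.63% of all genes and 11.3% of genes with a mean at least that of the lowest HAT. Leaving out each library gave 2 to 7 partners higher and 4 to 9 lower. The causes were not tested, apart from the bounds and minimum themselves. Among 14 named partners, 5 kept their call in each of 14 alternatives, 9 lost it in at least 1 and 0 changed sign. Same-numbered libraries had correlations of their deviations of -0.03, -0.07 and 0.04, and with the replicate block 5 partners were higher and 8 lower, with KAT2B at an adjusted p of 0.05 and not called. The KAT6A to KAT6B difference of log2 ratio was 0.63 with the block (exact sign-flip p = 0.25, the smallest it allows) and ran from 0.57 to 0.73 when each library was left out.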
